A study of Mus musculus with 12 samples.

Results

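The Hsp70 and Hsp110 family was followed in mpkCCD cells through 10 genes chosen by symbol (Hspa1a, Hspa1b, Hspa2, Hspa4, Hspa4l, Hspa8, Hspa9, Hspa13, Hspa14 and Hsph1), all of which were found among the 52015 genes used. The mpkCCD line comes from the mouse cortical collecting duct and models its principal cells. RNA-seq was performed on 12 cultures. Scr_300 and Scr_600 were control cells transduced with a scramble non-targeting guide RNA, labelled WT, with 2 libraries each. Nfat5-KO_300 and Nfat5-KO_600 had a CRISPR/Cas9 deletion of Nfat5, with 4 libraries each drawn from 2 clones, N1 and N3, so that a difference between genotypes is also a difference between clonal lines and their controls. Cells were kept for 5 days at 300 mosmol/kg (isotonic) or at 600 mosmol/kg (hypertonic), the latter by adding 100 mM NaCl and 100 mM urea. The deposited values are FPKM, fragments scaled by the length of the gene model and by the mapped reads of the library, with 1 value per gene and group. There is therefore no spread between replicates, the 2 clones are merged, and every difference given here is a description of 4 group values without a p-value. In such bulk values, fewer cells expressing a gene and less RNA per cell cannot be told apart.

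Hsp70 proteins are ATP-driven chaperones. They bind exposed hydrophobic stretches of unfolded or newly made proteins, with a J-domain protein delivering the client and starting ATP hydrolysis, and a nucleotide exchange factor releasing it. Hsp110 proteins are distant relatives of Hsp70 that act mainly as such exchange factors. Hspa8 (Hsc70) is the constitutive cytosolic form, and Hspa1a and Hspa1b are its stress-inducible counterparts, known as heat shock genes under the factor HSF1 and, in renal cells, as genes induced by hypertonicity, for which NFAT5 is a known regulator. In the renal medulla, inducible Hsp70 is known for protecting cells from high salt and urea.

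The inducible pair lies on chromosome 17 of GRCm38. Hspa1b runs from 34956436 to 34959238 and Hspa1a from 34969190 to 34972156, both on the minus strand with 9951 bases between them. Hspa1l, a related Hsp70 gene known from testis, lies 546 bases from Hspa1a. The RefSeq promoter windows (GRCm38.p6) were searched for motifs in the 250 bases before each start site. They are shown for Hspa1b and Hspa1a because the results turn on this pair and its copies are near-identical here too. The windows of Hspa4l and Hsph1, the Hsp110 genes that were higher with the pair, run into annotated exons and are not shown. That of Hspa4l (chr3:40745363-40745612, plus strand) lies wholly inside the gene in GENCODE, which starts at 40744495. Capitals mark matches to the heat shock element of 2 units (GAANNTTC) and the CCAAT box (CCAAT), on either strand.
Hspa1b, chr17:34959239-34959488, minus strand: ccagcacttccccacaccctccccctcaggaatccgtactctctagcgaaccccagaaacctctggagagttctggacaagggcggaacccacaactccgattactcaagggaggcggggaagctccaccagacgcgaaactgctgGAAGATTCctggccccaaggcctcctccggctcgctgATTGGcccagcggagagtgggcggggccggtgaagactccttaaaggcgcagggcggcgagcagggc
Hspa1a, chr17:34972157-34972406, minus strand: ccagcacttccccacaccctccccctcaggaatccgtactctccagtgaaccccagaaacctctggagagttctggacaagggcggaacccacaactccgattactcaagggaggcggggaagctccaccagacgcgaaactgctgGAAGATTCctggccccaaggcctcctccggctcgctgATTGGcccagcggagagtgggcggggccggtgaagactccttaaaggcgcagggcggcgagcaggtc

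The windows of Hspa1a and Hspa1b differed in 3 of 250 bases (98.8% identical). Each held 1 heat shock element of 2 units from base -104 to -97, and 1 CCAAT box on the opposite strand from -67 to -63. The element of 2 units was present in 6.69% of 32851 promoter windows of the same length, and the CCAAT box in 33.8%. Hsph1 held 2 CCAAT boxes. Hspa4l held none of the motifs, in a window inside the annotated gene and not upstream of it. The heat shock element of 3 units (alternating GAA and TTC, each NN apart, in 0.466% of windows) and the TATA box (TATAAA, in 12.4%) were in none of the 7 members' windows searched. The core of the tonicity element (TGGAAA, in 18.6%) was found in Hspa2 alone among the 7, from base -15 to -10. The window of Hspa2 (chr12:76404120-76404369, plus strand) runs past the start of the gene in GENCODE (76404176). This match therefore lies inside the annotated gene and not upstream of it. The windows of Hspa8, Hspa9 and Hspa13 were not searched. These matches are letters in a window and say nothing of binding.

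Under isotonic conditions the family spanned 3 orders of magnitude in Scr cells. Hspa8 was the most abundant member with 470.0 FPKM in Scr_300, place 42 among all genes. It was followed by Hspa9, the mitochondrial Hsp70 (156.3 FPKM), Hspa1b (91.1 FPKM), Hsph1 (81.7 FPKM) and Hspa4 (63.4 FPKM), the last 2 of them Hsp110 genes. Hspa14, which works with a J-domain partner at the ribosome, had 24.6 FPKM, and Hspa4l, the least abundant Hsp110 gene, had 12.4 FPKM. Hspa13, a microsomal Hsp70 (7.70 FPKM), Hspa2, known as an Hsp70 of male germ cells (4.32 FPKM), and Hspa1a (0.439 FPKM) closed the list. FPKM is a level per gene length, so levels of different genes can be set side by side only as far as the length used holds. In GENCODE M21 the merged exons of Hspa8 span 4301 bases and its longest coding transcript 2394, while Hspa1b has 2803 for both. Reads shared with other genes also bear on Hspa8, Hspa1a and Hspa1b. Whether neighbours in this order differ beyond their spread is unknown.

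The order changed at 600 mosmol/kg in Scr cells. Hspa1b had 231.0 FPKM in Scr_600, place 111 among all genes against place 440 in Scr_300, and came next after Hspa8 in the family. Hsph1 followed with 157.6 FPKM, and then Hspa9 with 135.1 FPKM. In both Nfat5-KO_300 and Nfat5-KO_600 Hspa1b came after Hspa8, Hspa9, Hsph1 and Hspa4, with 52.3 and 42.5 FPKM.

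**Figure D1:**
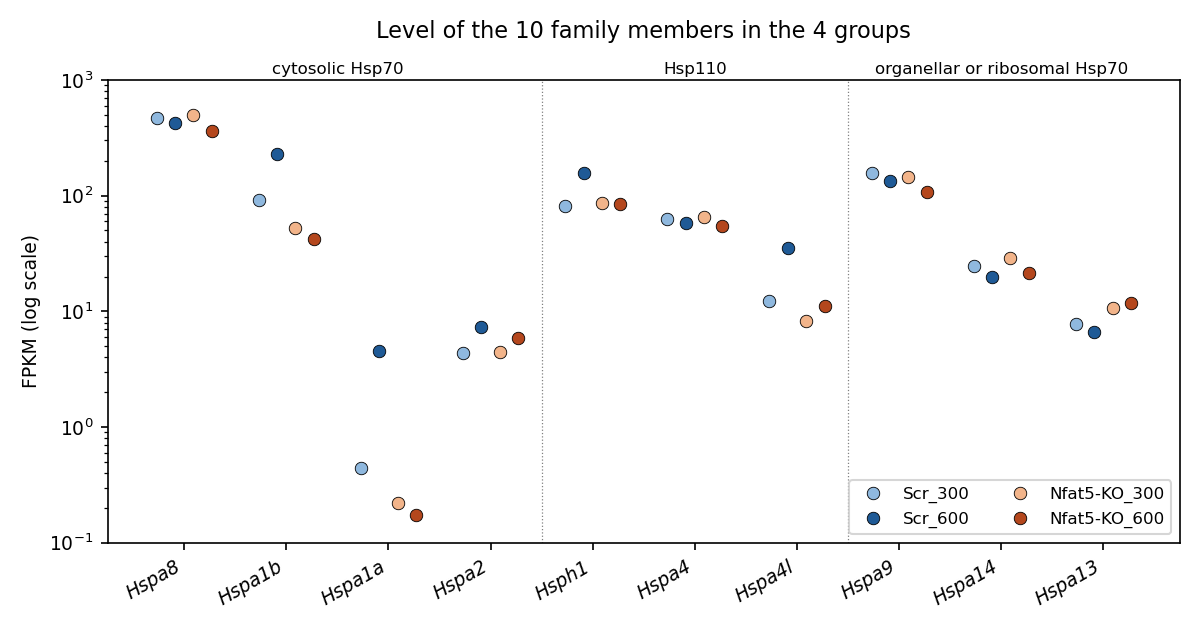
FPKM (log axis) of the 10 members in the 4 groups, 1 point per group and no error bars because the deposited table has 1 value per group. Hspa1b, Hspa1a, Hsph1, Hspa4l and Hspa2 have their highest point in Scr_600, while the 4 points of Hspa8, Hspa4 and Hspa9 lie close together.

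The pair Hspa1a and Hspa1b is counted with a limit. Of the 100-base stretches of the Hspa1a transcript in GENCODE M21, 56.5% also occur in another gene, mostly Hspa1b, and of those of Hspa1b 49.9% do. A read inside such a stretch cannot be assigned to 1 gene. Hspa1a also shares 564 of its 2967 exon bases with Gm20481, a gene on the opposite strand that was listed at 0 in all groups. Hspa1b was 207.3 times as high as Hspa1a in Scr_300, 50.9 times in Scr_600, 237.6 times in Nfat5-KO_300 and 242.6 times in Nfat5-KO_600. The share of this imbalance that comes from shared reads was not tested, and the sum of both genes is given in each of the 4 comparisons and for the difference of the responses.

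From the steps of the lowest FPKM values, the reads behind each value were estimated. Hspa1a had about 94 reads in Scr_300, 1000 in Scr_600, 81 in Nfat5-KO_300 and 72 in Nfat5-KO_600, summed over the libraries of the group. Hspa2, the next lowest in reads, had 821 to 2170 reads in a group, and Hspa1b 16546 to 48100. If group values are means of the libraries, the same steps correspond to 30800000 to 37100000 reads per library. These reads give the counting precision and not the spread between cultures.

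The first question was how the family responds to hypertonicity in control cells. Hspa1a stood at 0.439 FPKM in Scr_300 and at 4.54 in Scr_600, a log2 ratio of FPKM + 0.1 of 3.10. Hspa4l, an Hsp110 gene known to respond to osmotic stress, stood at 12.4 FPKM in Scr_300 and at 35.0 in Scr_600 (log2 ratio 1.496). Hspa1b stood at 91.1 FPKM in Scr_300 and at 231.0 in Scr_600 (log2 ratio 1.34). These 3 of 10 members were at least 2-fold higher in Scr_600, where 4.81% of the 12929 genes compared were, and 0 members were at least 2-fold lower, against 2.86% of the genes. Of all genes, 45 had a higher log2 ratio than Hspa1a, 316 a higher one than Hspa4l and 390 a higher one than Hspa1b. The sum of Hspa1a and Hspa1b had a log2 ratio of 1.36, and with the pair summed 2 members were at least 2-fold higher.

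Below the 2-fold line stood Hsph1 (Hsp105), the most abundant Hsp110 gene, at 81.7 FPKM in Scr_300 and 157.6 in Scr_600 (log2 ratio 0.95). Its value passed 2-fold, with a log2 ratio of 1.08, when the groups were scaled to the same FPKM total. Hspa2 stood at 4.32 FPKM in Scr_300 and at 7.32 in Scr_600 (log2 ratio 0.75). At a line of 1.5-fold, 5 of 10 members were higher, against 10.4% of the genes, and 0 were lower, against 9.01%. The other 5 members were lower in Scr_600 by less than 1.5-fold. They were Hspa4, an Hsp110 gene (log2 ratio -0.13), Hspa8 (-0.15), Hspa13 (-0.20), Hspa9 (-0.21) and Hspa14 (-0.32), beside a median of -0.04 over all genes compared. Scaling to equal FPKM totals moves the log2 ratios of this comparison up by 0.13, less for low genes, and Hspa4 then stood at -0.00. The family was thus divided in Scr cells, with the inducible Hsp70 pair, 2 of 3 Hsp110 genes and Hspa2 higher and the constitutive, mitochondrial, microsomal and ribosomal Hsp70 genes near or below the median gene.

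The same comparison in Nfat5-KO cells placed 0 of 9 members past 2-fold or past 1.5-fold in either direction. The 2-fold line was passed upward by 6.25% of 12982 genes and downward by 4.11%, and the 1.5-fold line by 14.1% and 13.8%. Hspa1b stood at 52.3 FPKM in Nfat5-KO_300 and at 42.5 in Nfat5-KO_600 (log2 ratio -0.30), and the sum of the pair also had -0.30. Hspa1a stood at 0.220 FPKM in Nfat5-KO_300 and at 0.175 in Nfat5-KO_600, under the minimum of 0.5 FPKM in both groups, so it is not among the 9 members compared. Hsph1 had 86.6 FPKM and 84.2 FPKM (log2 ratio -0.04). Hspa4l stood at 8.33 FPKM in Nfat5-KO_300 and at 11.0 in Nfat5-KO_600 (log2 ratio 0.40), and Hspa2 had 4.45 FPKM and 5.92 FPKM (log2 ratio 0.40). These were the highest log2 ratios of the family in the knockout cells.

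Among the other members in Nfat5-KO cells, Hspa8 stood at 494.8 FPKM in Nfat5-KO_300 and at 359.3 in Nfat5-KO_600 (log2 ratio -0.46), Hspa14 had a log2 ratio of -0.45, Hspa9 one of -0.40 and Hspa4 one of -0.27. Hspa13 had 10.6 and 11.7 FPKM (log2 ratio 0.14). In all, 6 of 9 members were lower, where 6862 of 12982 genes were. The members' median was -0.27 against -0.04 over all genes compared. Scaling to equal FPKM totals moves the log2 ratios of this comparison up by 0.24, less for low genes. Then Hsph1 had 0.20, the members' median was -0.02 and that of all genes 0.20, and the members' median stayed below that of all genes. With median-of-ratios factors Hsph1 had 0.04, so its sign in Nfat5-KO cells depends on the scaling. Under either scaling 5 of the 9 members were lower.

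**Figure D2:**
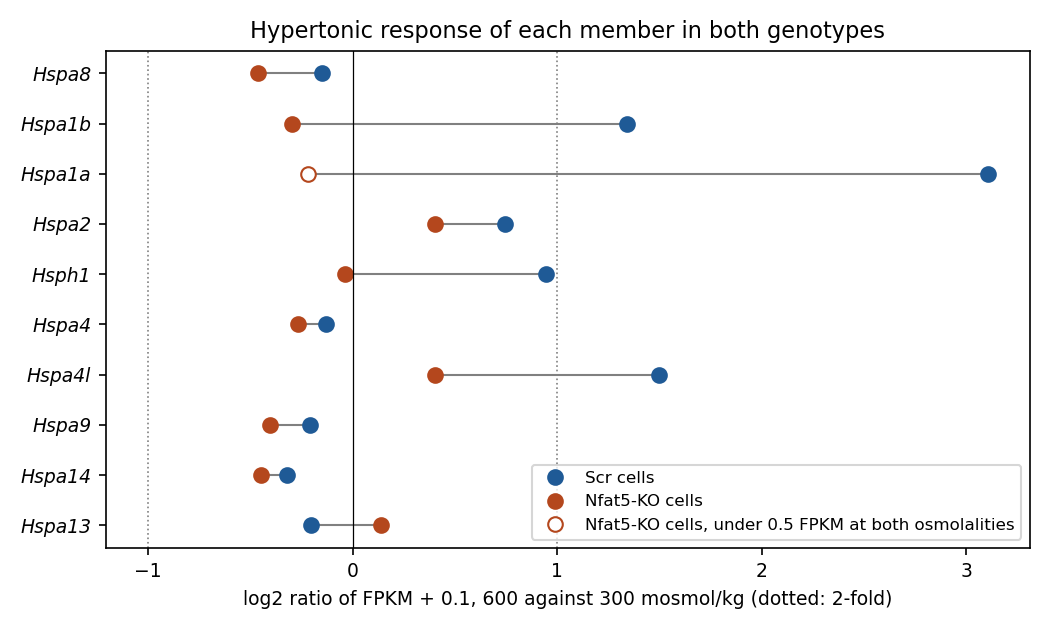
Log2 ratio of FPKM + 0.1 at 600 against 300 mosmol/kg for each member in Scr cells (blue) and Nfat5-KO cells (red), with dotted lines at 2-fold. Hspa1a, Hspa1b, Hspa4l and Hsph1 have the longest lines between both genotypes (-3.32, -1.64, -1.09 and -0.99 for Nfat5-KO minus Scr).

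The difference between both hypertonic responses, Nfat5-KO minus Scr on the log2 scale, was -3.32 for Hspa1a, -1.64 for Hspa1b, -1.09 for Hspa4l and -0.99 for Hsph1. Among 13414 genes reaching 0.5 FPKM somewhere, 11 had a lower difference than Hspa1a, 155 a lower one than Hspa1b, 344 a lower one than Hspa4l and 438 a lower one than Hsph1. Hspa1a passed this minimum only through Scr_600, its highest group, as it did in the comparisons in Scr cells and at 600 mosmol/kg. Its place is therefore a description and no support for a lost response. The sum of Hspa1a and Hspa1b had a difference of -1.66, and Hspa1a alone had -2.00 at a pseudocount of 1. A difference of at least 1 downward was seen for 3 of 10 members (2 with the pair summed) and 3.16% of the genes. Upward it was seen for 0 members and 3.88% of the genes. The 3 members with the downward difference were also the 3 at least 2-fold higher in Scr_600, and that response is subtracted here. Among the 13414 genes, 659 were at least 2-fold higher in Scr_600, and 213 of these had a difference of at least 1 downward. Hspa2 (-0.34), Hspa8 (-0.31), Hspa9 (-0.19), Hspa4 (-0.14) and Hspa14 (-0.12) were closer to the median of all genes (-0.01), and Hspa13 had the single positive difference of the family (0.34). The difference rests on all 4 group values and was not tested, since values per library are needed for that.

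Before the effect of the knockout on the family, Nfat5 itself was read in every group as a check of the labels. It stood at 5.61 FPKM in Scr_300 and at 3.47 in Nfat5-KO_300, and at 7.93 FPKM in Scr_600 against 6.88 in Nfat5-KO_600. Its level was lower in both knockout groups but by less than 2-fold, and an edited gene can still be transcribed, so these levels check the labels only weakly.

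Under isotonic conditions 0 of 9 members compared were at least 2-fold changed, beside 1.73% of 12704 genes past that line upward and 2.44% downward. The lowest log2 ratio was that of Hspa1b, at 91.1 FPKM in Scr_300 and 52.3 in Nfat5-KO_300 (log2 ratio -0.80), and 460 genes had a lower one. It was the single member lower by at least 1.5-fold, against 6.21% of the genes, and 0 members were higher by that much, against 5.27%. Hspa4l stood at 12.4 FPKM in Scr_300 and at 8.33 in Nfat5-KO_300 (log2 ratio -0.56). Hspa1a, at 0.439 FPKM in Scr_300 and 0.220 in Nfat5-KO_300, lay under the minimum in both groups, and the sum of the pair had a log2 ratio of -0.80. On the other side stood Hspa13, at 7.70 FPKM in Scr_300 and 10.6 in Nfat5-KO_300 (log2 ratio 0.46), and Hspa14 (0.24). Hspa8 (0.07), Hsph1 (0.08), Hspa4 (0.04), Hspa2 (0.04) and Hspa9 (-0.12) were close to the median of all genes (-0.00).

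Under hypertonic conditions the genotypes were further apart. Hspa1a stood at 4.54 FPKM in Scr_600 and at 0.175 in Nfat5-KO_600, which was 25.9-fold lower in FPKM and a log2 ratio of FPKM + 0.1 of -4.07. Hspa1b stood at 231.0 FPKM in Scr_600 and at 42.5 in Nfat5-KO_600, 5.43-fold lower in FPKM (log2 ratio -2.44). Hspa4l stood at 35.0 FPKM in Scr_600 and at 11.0 in Nfat5-KO_600 (log2 ratio -1.66). These were 3 of 10 members at least 2-fold lower in Nfat5-KO_600, against 3.68% of 13063 genes, and 0 members were at least 2-fold higher, against 3.76%. Of all genes, 8 had a lower log2 ratio than Hspa1a, 79 a lower one than Hspa1b and 185 a lower one than Hspa4l. The value of Hspa1a depends on the pseudocount. It was -4.62 at a pseudocount of 0.01, with 21 genes lower, and -2.24 at 1, with 24 genes lower, where Hspa1b had -2.41 and stood below it. The sum of the pair had a log2 ratio of -2.46, and with the pair summed 2 members were at least 2-fold lower.

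Hsph1 stood at 157.6 FPKM in Scr_600 and at 84.2 in Nfat5-KO_600 (log2 ratio -0.90), and with it 4 members were lower by at least 1.5-fold, against 9.44% of the genes. Hspa9 (-0.32), Hspa2 (-0.30), Hspa8 (-0.24) and Hspa4 (-0.09) were lower by less than 1.5-fold, and Hspa14 was at 0.12. Hspa13 was the single member higher by at least 1.5-fold, against 9.84% of the genes, at 6.69 FPKM in Scr_600 and 11.7 in Nfat5-KO_600 (log2 ratio 0.80), and 746 genes had a higher value. The median of the 10 members was -0.31 against -0.02 for all genes compared. Scaling to equal FPKM totals moves the log2 ratios of this comparison up by 0.13, which turns Hspa4 to 0.04. The knockout comparisons at both osmolalities share no libraries, but the Scr_600 value enters both the hypertonic comparison in Scr cells and this one, so a single high value of a gene in Scr_600 would appear in both.

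**Figure D3:**
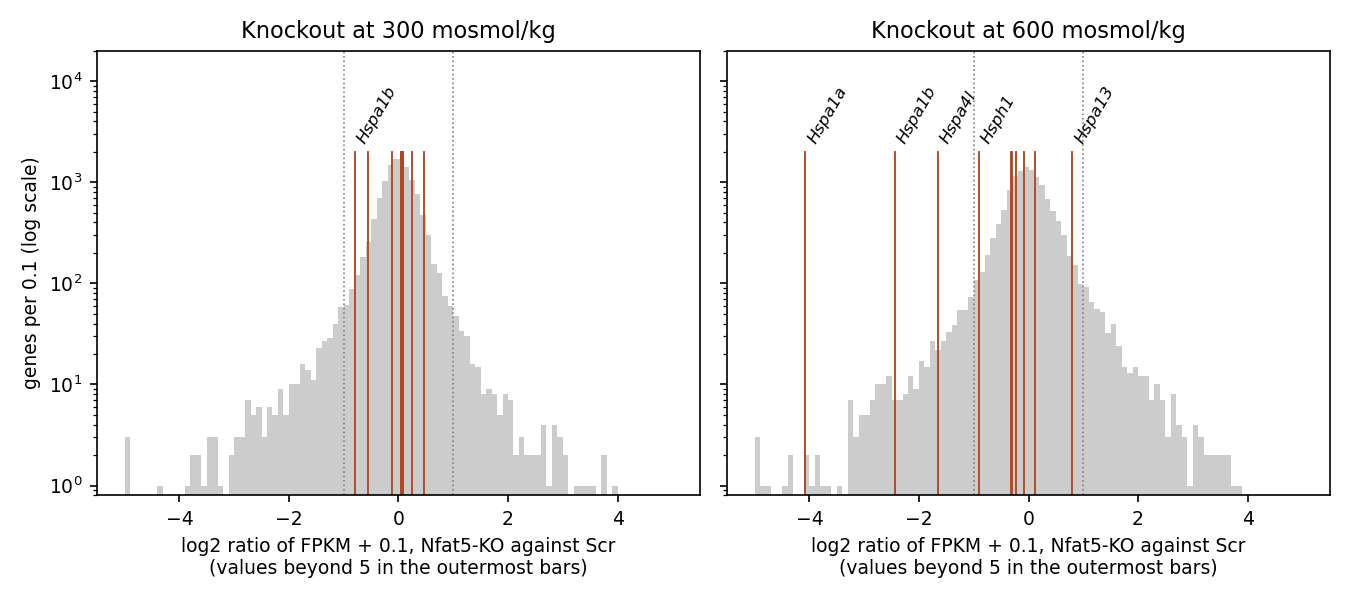
Number of genes per 0.1 of log2 ratio of FPKM + 0.1, Nfat5-KO against Scr (grey bars, log axis), at 300 mosmol/kg (left, 12704 genes) and 600 mosmol/kg (right, 13063 genes), with red lines at the members and names at those past 1.5-fold. Hspa1b stands at -0.80 on the left, where Hspa1a is not drawn because it was under 0.5 FPKM in both groups, and Hspa1a, Hspa1b and Hspa4l stand at -4.07, -2.44 and -1.66 on the right.

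The make-up of the family within a group does not depend on how the groups were scaled, but it does depend on the gene lengths used. Hspa8 made up 51.5% of the summed FPKM of the 10 members in Scr_300, 39.3% in Scr_600, 55.3% in Nfat5-KO_300 and 51.4% in Nfat5-KO_600. Hspa1a and Hspa1b together made up 10.0% in Scr_300, 21.8% in Scr_600, 5.87% in Nfat5-KO_300 and 6.11% in Nfat5-KO_600. The inducible pair thus took its largest share in Scr_600 and shares under 7% in both knockout groups.

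Set against Hspa8, the constitutive cytosolic form, the pair had 19.5 FPKM per 100 FPKM of Hspa8 in Scr_300, 55.6 in Scr_600, 10.6 in Nfat5-KO_300 and 11.9 in Nfat5-KO_600. The summed FPKM of the 10 members was 911.9 in Scr_300, 1078.3 in Scr_600, 895.2 in Nfat5-KO_300 and 699.0 in Nfat5-KO_600. Without Hspa1a and Hspa1b it was 820.3 in Scr_300 and 842.8 in Scr_600. As deposited, the pair thus made up most of the net difference of the sum in Scr cells. The other members moved in both directions. From Scr_300 to Scr_600, Hsph1 went from 81.7 to 157.6 FPKM, Hspa8 from 470.0 to 423.5 and Hspa9 from 156.3 to 135.1. In Nfat5-KO cells the sum without the pair was 842.7 at 300 mosmol/kg and 656.3 at 600 mosmol/kg. Unlike shares, these sums depend on how the groups were scaled.

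The Hsp110 genes, as exchange factors, can be set against the cytosolic Hsp70 genes they serve (Hspa1a, Hspa1b, Hspa2 and Hspa8). The Hsp110 genes summed to 27.8 FPKM per 100 FPKM of cytosolic Hsp70 in Scr_300 and 37.6 in Scr_600. In Nfat5-KO cells this was 29.0 at 300 mosmol/kg and 36.7 at 600 mosmol/kg. The quotient was higher at 600 mosmol/kg in both genotypes, while its parts differed. In Scr cells the Hsp110 sum was 157.5 FPKM and then 250.5 FPKM, and the cytosolic Hsp70 sum 565.8 and 666.3 FPKM. In Nfat5-KO cells the Hsp110 sum was 160.2 FPKM and then 149.6 FPKM, and the cytosolic Hsp70 sum 551.8 and 407.9 FPKM.

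**Figure D4:**
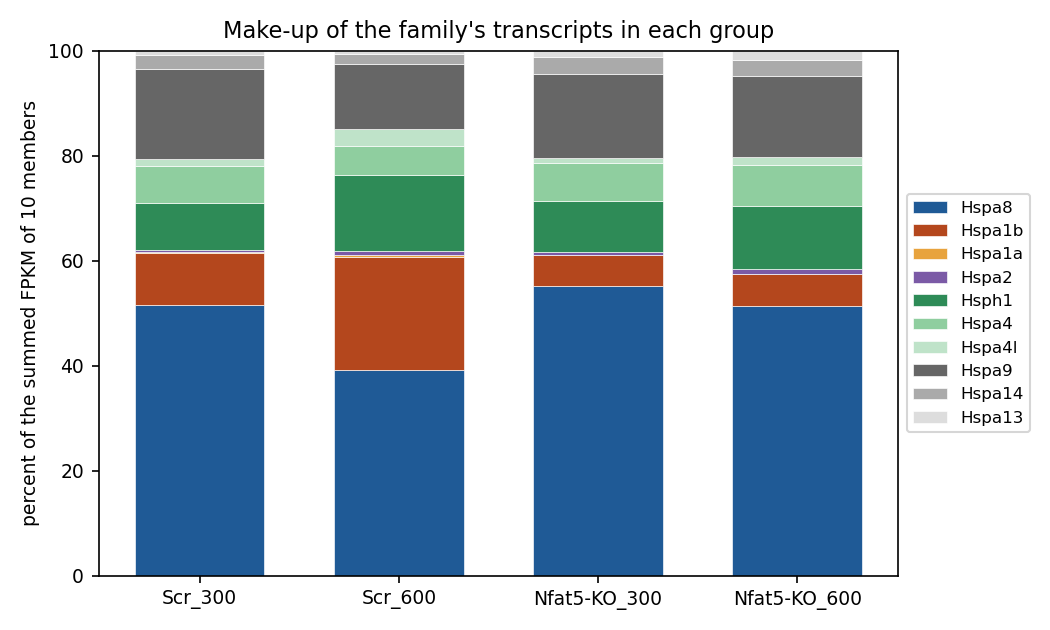
Percent of the summed FPKM of the 10 members that each member made up in each group. Hspa1b takes 21.4% of the column in Scr_600 against 9.99%, 5.85% and 6.09% in Scr_300, Nfat5-KO_300 and Nfat5-KO_600, and Hspa8 falls to its smallest share, 39.3%, in Scr_600.

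The partners of the Hsp70 cycle were read from lists of genes. Of 10 nucleotide exchange factors outside the Hsp110 group, which include the BAG proteins, Hspbp1, Sil1 of the endoplasmic reticulum and the mitochondrial Grpel1, 0 were at least 2-fold changed in any of the 4 comparisons. At 600 against 300 mosmol/kg their median log2 ratio was -0.03 for Scr and -0.19 for Nfat5-KO cells. Bag3, a heat-inducible co-chaperone of Hsp70, had 13.6 FPKM in Scr_300, 14.8 in Scr_600, 12.99 in Nfat5-KO_300 and 11.0 in Nfat5-KO_600. Of 11 J-domain partners, 10 were compared and 0 were at least 2-fold changed in any comparison, with medians of -0.04 in Scr and -0.14 in Nfat5-KO cells. Dnajb1 (Hsp40), the textbook heat shock partner of Hspa1a and Hspa1b, had 22.3 to 23.9 FPKM in the 4 groups, a narrow range beside that of Hspa1b.

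Genes that link Hsp70 to Hsp90, together with the cytosolic Hsp90 genes themselves, numbered 11. Of these 0 were at least 2-fold changed in Scr cells and 1 was at least 2-fold lower at 600 mosmol/kg in Nfat5-KO cells. That was Tomm70a, a mitochondrial import receptor that docks both chaperones, at 39.0 FPKM in Nfat5-KO_300 and 17.1 in Nfat5-KO_600 (log2 ratio -1.18). In Scr cells it had 30.02 and 15.2 FPKM (log2 ratio -0.97). Hsp90aa1, the stress-inducible Hsp90, had 478.6 FPKM in Scr_300, 362.7 in Scr_600, 549.5 in Nfat5-KO_300 and 500.0 in Nfat5-KO_600, so its lowest value was in the group where Hspa1b was highest.

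Of 5 genes of heat shock factors and their binding protein, 4 were compared and 0 were at least 2-fold changed in any comparison. Hsf1, the main heat shock factor, had 8.99 FPKM in Scr_300, 10.5 in Scr_600, 9.30 in Nfat5-KO_300 and 10.9 in Nfat5-KO_600. Of 8 heat-inducible genes outside the family, 7 were compared and 0 were at least 2-fold higher at 600 mosmol/kg in either genotype. Hspb1 (Hsp25), a small heat shock protein, was at least 2-fold lower in both, with 249.0 FPKM in Scr_300 and 99.3 in Scr_600 (log2 ratio -1.33) and 221.8 FPKM in Nfat5-KO_300 and 63.9 in Nfat5-KO_600 (log2 ratio -1.79). Cryab, a small heat shock protein too, went the other way in Scr cells without passing 2-fold, from 143.6 FPKM to 255.8 FPKM (log2 ratio 0.83), with 148.6 and 156.9 FPKM in Nfat5-KO cells (0.08) and a log2 ratio of -0.70 for the knockout at 600 mosmol/kg. It was added after its values were seen. The list had a median of -0.38 in Scr and -0.07 in Nfat5-KO cells. These counts are of messenger RNA and give no reading of HSF1 activity.

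Other Hsp70 superfamily genes outside the 10 members numbered 5, of which 3 were compared and 0 were at least 2-fold changed in any comparison. Hspa5 (BiP), the Hsp70 of the endoplasmic reticulum, had 144.5 FPKM in Scr_300, 118.3 in Scr_600, 143.3 in Nfat5-KO_300 and 94.0 in Nfat5-KO_600, the same order of groups as for Hspa9. Hspa1l, the neighbour of Hspa1a, had 0.348 to 0.726 FPKM in the 4 groups. Of 9 genes next to the Hspa1 pair on chromosome 17, Hspa1l included, 0 were at least 2-fold changed in any comparison. At 600 mosmol/kg in Scr cells 8 of them were compared and their median was 0.18 against -0.04 over all genes. In Nfat5-KO_300 against Scr_300 7 were compared, and all 7 were lower, where 6377 of 12704 genes were. Their median was -0.35 against -0.00 over all genes, and Ehmt2 (-0.06) and Neu1 (-0.09) were the closest to that. In Nfat5-KO_600 against Scr_600 8 were compared, and 7 were lower, where 6817 of 13063 genes were. Their median there was -0.14 against -0.02 over all genes. Whether the position on the chromosome plays a part was not tested.

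A list of osmoprotective genes, which also held the water channel gene Aqp2 and Ranbp3l, gave the comparison from outside the chaperones. Of 7 listed, 6 were compared in Scr cells and 4 passed 2-fold upward at 600 mosmol/kg, against 4.81% of all genes compared. In Nfat5-KO cells 2 of 4 compared did so, against 6.25%. Slc6a12 and Ranbp3l were under the minimum there. In Scr cells these genes passed the minimum only through Scr_600, their highest group, so their calls there are descriptions. Over the 6 genes compared in Scr cells the median log2 ratio was 1.99. Over the 4 genes compared in both genotypes it was 0.99 in Scr and 0.95 in Nfat5-KO cells. These 4 leave out Slc6a12 and Ranbp3l, which had the highest log2 ratios of the list in Scr cells (4.39 and 5.18). Akr1b3 (aldose reductase, which makes sorbitol) had 23.8 FPKM in Scr_300, 175.2 in Scr_600, 14.5 in Nfat5-KO_300 and 39.2 in Nfat5-KO_600. Its hypertonic log2 ratio was 2.87 in Scr and 1.43 in Nfat5-KO cells, while that of Hspa1b was 1.34 and -0.30. Slc6a6, the taurine transporter, was the other gene past 2-fold in Nfat5-KO cells (1.37, against 0.88 in Scr cells). Slc5a3, the myo-inositol transporter, had 1.11 in Scr and 0.27 in Nfat5-KO cells. Slc6a12, the betaine transporter, stood at 0.00512 FPKM in Scr_300, at 2.10 in Scr_600 and at 0.135 in Nfat5-KO_600. With such low values in Scr_300, the size of the log2 ratios of Slc6a12 and Ranbp3l depends on the pseudocount. Ranbp3l, a Ran-binding protein gene, stood at 3.53 FPKM in Scr_600 and at 0.0127 in Nfat5-KO_600 and was listed at 0 in Scr_300.

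**Figure D5:**
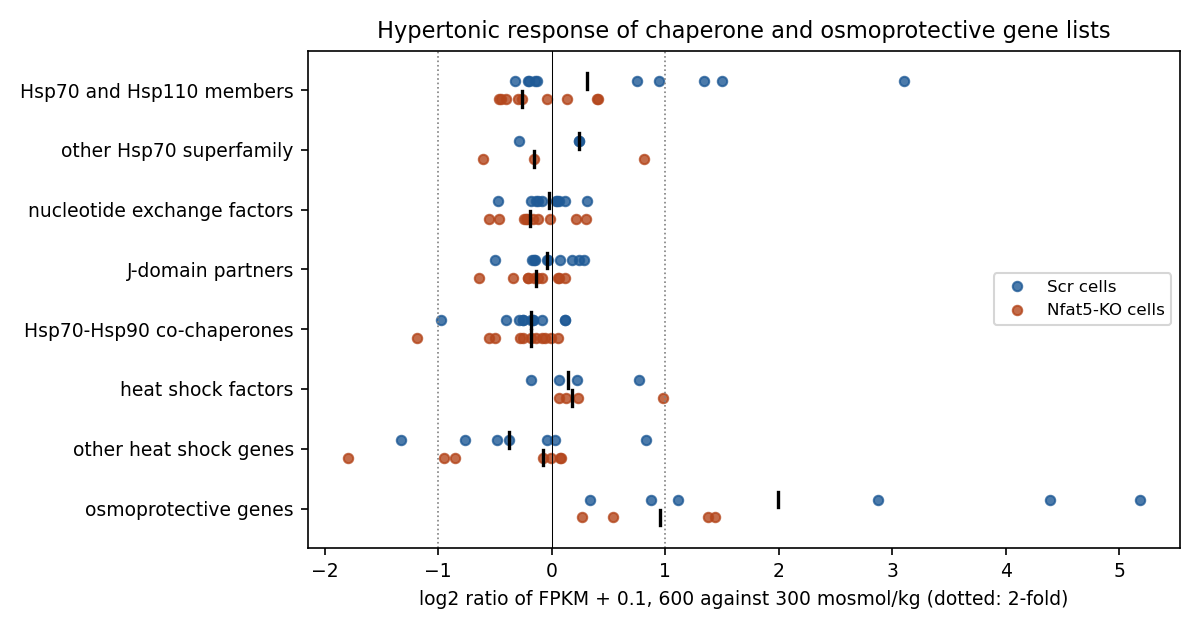
Log2 ratio of FPKM + 0.1 at 600 against 300 mosmol/kg in Scr cells (blue) and Nfat5-KO cells (red) for genes of 8 lists with at least 0.5 FPKM in either group, with black bars at each list's median and dotted lines at 2-fold. In Scr cells 3 family members and 4 genes of the osmoprotective list, Ranbp3l among them, lie beyond 2-fold on the right, and 0 genes of the other lists do.

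Genes with the most similar pattern were sought among 11921 genes that reached 1 FPKM in any of the groups, by the Euclidean distance between log2 profiles centred on their mean over the 4 groups. For Hspa4l these were Prkar2b, a regulatory subunit of protein kinase A (distance 0.20), Uvrag (0.20), Fam198b (0.22), Oasl2 (0.22) and A230050P20Rik (0.23). Prkar2b had 31.2 FPKM in Scr_300, 87.0 in Scr_600, 23.5 in Nfat5-KO_300 and 32.2 in Nfat5-KO_600. For Hspa1b they were Oas1g, an interferon-inducible gene (0.29), Gm27514 (0.34), Gm26403 (0.41), Ltbp1, which binds latent TGF-beta (0.41), and Ifi44, also interferon-inducible (0.46). Of these Ltbp1 had the highest level, with 1.76 FPKM in Scr_300, 5.80 in Scr_600, 1.501 in Nfat5-KO_300 and 1.02 in Nfat5-KO_600.

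For Hspa1a the nearest were Lifr, the receptor of leukaemia inhibitory factor (0.48), Mir133a-2 (0.67), Lgals3bp (0.74), Krt23 (0.77) and Slfn2 (0.81). Between members, Hspa1b and Hspa4l were 0.72 apart, Hspa1a and Hspa1b 1.48, and Hspa1a and Hspa4l 1.78. With 4 points in a profile, and values of Hspa1a under 0.5 FPKM in 3 of them, the distances are descriptions.

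The label of the cells was read from marker genes. All 8 markers of simple epithelium, such as Krt8 and Epcam, had at least 0.5 FPKM in a group, summing to 1185 to 1938 FPKM per group. Of 12 principal cell markers 5 did, summing to 9.64 to 47.0 FPKM per group. Aqp2, the water channel that defines principal cells, reached at most 0.245 FPKM, and Avpr2, the vasopressin receptor, at most 0.0193 FPKM. Of 14 markers of other cell types, 1 reached 0.5 FPKM, Lrp2 (1.07 FPKM in Nfat5-KO_600), and their sum was 0.160 to 1.95 FPKM per group. Below that stood Slc4a1 (0.417 FPKM) and Col1a1 (0.221 FPKM), both highest in Nfat5-KO_600, and the other 11 were under 0.1 FPKM in all groups. Some markers moved with the genotype or the osmolality. The principal cell genes Gata3, Hsd11b2 and Scnn1a had 30.04, 6.18 and 7.03 FPKM in Nfat5-KO_600 against 4.33, 0.655 and 1.31 FPKM in Scr_600. Kcnj1, the potassium channel ROMK, went the other way, with 0.0740 FPKM in Nfat5-KO_600 against 0.725 FPKM in Scr_600, so that 3 of the 5 principal cell markers compared passed 2-fold upward and 1 downward with the knockout. The epithelial genes Krt19 and Cldn4 had 67.9 and 148.2 FPKM in Scr_600 against 49.3 and 42.5 FPKM in Nfat5-KO_600, with 153.7 and 66.0 FPKM in Scr_300. Their part in the results on the family was not tested.

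For the constitutive Hspa8, 63.4% of the 100-base stretches of its longest coding transcript occur in other annotated genes, mostly copies of it. Gm15459 and Gm26825 hold 1342 of these stretches each. Gm15459 had 12.5 to 18.5 FPKM in the 4 groups, against 359.3 to 494.8 FPKM of Hspa8, and Gm26825 was listed at 0 in all of them. Hspa14 shared 13.1% of its stretches with the overlapping gene Gm45902. Hspa2, Hspa4, Hspa4l, Hspa9, Hspa13 and Hsph1 shared 0 stretches, so the values of Hspa4l and Hsph1 do not carry this limit within the annotated transcripts.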

How the data were processed

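RNA of 12 mpkCCD cultures was sequenced. The authors filtered the reads, aligned them to GRCm38/mm10 by HISAT2, counted genes by HTSeq and calculated RPKM. Tool versions, the annotation release, the settings for multi-mapped reads and strand, and the way libraries were merged into groups are not given in the sources used here. The deposited FPKM values hold a single number for a gene in each of 4 groups and none per library, so replicate error is unknown and no p-value was calculated. Of 54839 rows, 2436 had no value. Removing 311 exact duplicates and 37 symbols with several rows left 52015 genes. The members and lists were chosen with earlier results of these data known.

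For each of 4 comparisons, log2 ratios of FPKM + 0.1 were taken over genes with at least 0.5 FPKM in either group, and genes were called at 2-fold. The ratio and calling steps were run on simulated group values with planted changes larger than 2-fold in genes away from the minimum. This checks the code, and covers neither low values such as those of Hspa1a nor the spread between cultures. All members were named, with list genes called at 2-fold and at least 1 FPKM in either group, 7 fixed genes (Nfat5, Hsf1, Hsp90aa1, Dnajb1, Bag3, Hspa5 and Akr1b3), and the 5 genes with the smallest Euclidean distance between centred log2 profiles for each called member. The reads behind a value were estimated from the steps of the low values. FPKM times the merged exon length of GENCODE M21 (GRCm38) had a first step of 0.0139 in Scr_300, 0.0135 in Scr_600, 0.00810 in Nfat5-KO_300 and 0.00721 in Nfat5-KO_600, which was taken as the worth of 1 read. Promoter windows came from RefSeq for GRCm38.p6. A planned comparison of proteins was not run here. Python 3.11.15, numpy 2.4.6, pandas 2.3.3 and matplotlib 3.10.9 were used. The alternatives were a pseudocount of 1 or 0.01, leaving out the filter, a filter on a mean of 1 FPKM, equal FPKM totals, median-of-ratios factors, calls at 1.5-fold, and Hspa1a and Hspa1b summed.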

Additional observations from a re-analysis of the deposited data

Results flagged for a closer look

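Some members moved in opposite directions under the same contrast in different groups. None of these differences was tested, since each group has 1 value. For 600 against 300 mosmol/kg, the log2 ratio was positive in Scr and negative in Nfat5-KO cells for Hspa1a (difference -3.32), Hspa1b (-1.64) and Hsph1 (-0.99), and the reverse for Hspa13 (0.34). In Nfat5-KO cells Hspa1a was under 0.5 FPKM at both osmolalities. Its difference was -2.00 at a pseudocount of 1. For Nfat5-KO against Scr, the log2 ratio was positive at 300 and negative at 600 mosmol/kg for Hsph1 (-0.99), Hspa2 (-0.34), Hspa8 (-0.31) and Hspa4 (-0.14). The difference of a member is the same number under either contrast, since both are taken from the same 4 values. The log2 ratios of Hspa2, Hspa4 and Hspa8 at 300 mosmol/kg were small, at 0.04, 0.04 and 0.07. That of Hsph1 in Nfat5-KO cells was -0.04, and it turned positive with equal FPKM totals (0.20) and with median-of-ratios factors (0.04). That of Hspa4 at 600 mosmol/kg was -0.09, and 0.04 with equal FPKM totals.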

How the results depend on the processing

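Counts of members called at 2-fold were the same under pseudocounts of 1 and 0.01, no filter, the mean filter and median-of-ratios factors. With calls at 1.5-fold, 5 members were higher at 600 mosmol/kg in Scr cells, 1 was lower in Nfat5-KO_300 and 1 was higher in Nfat5-KO_600. The same lines were passed by 10.4%, 6.21% and 9.84% of the genes. With equal FPKM totals Hsph1 was 2-fold higher in Scr cells (log2 ratio 1.08), which made 4 members. Over all genes, 756 of 12893 were then higher and 288 lower. The difference of Hspa4l was -0.98 with equal totals, which left 2 members at least 1 lower. The matching count over all genes is not given for this difference. Hspa1a, the lowest member, depended most on the pseudocount, with a log2 ratio in Scr cells of 1.94 at 1 and 3.34 at 0.01, and for the knockout at 600 mosmol/kg of -2.24 and -4.62. With the pair summed, 2 members in place of 3 were called in Scr cells, in the knockout at 600 mosmol/kg and for the difference of the responses. Over all genes, 621 of 12928 were then higher in Scr cells and 480 of 13062 lower in the knockout at 600 mosmol/kg. No called log2 ratio changed sign. Counts over all genes moved more. The genes at least 2-fold higher and lower were 622 and 370 (Scr cells), 812 and 534 (Nfat5-KO cells), 220 and 310 (knockout at 300 mosmol/kg) and 491 and 481 (knockout at 600 mosmol/kg). They were 251 and 124, 259 and 230, 48 and 87, and 135 and 203 with a pseudocount of 1 (39.9% of those called higher in the knockout at 600 mosmol/kg, against 50.5%), 1098 and 737, 1422 and 789, 581 and 647, and 1086 and 798 without a filter, and 352 and 201, 467 and 388, 106 and 153, and 259 and 289 with the mean filter. With equal FPKM totals, 1318 were higher and 274 lower in Nfat5-KO cells (82.8% of those called higher, against 60.3%), and 654 and 407 in the knockout at 600 mosmol/kg (61.6%). No paired analysis was possible because the deposited columns hold groups and not libraries. For the same reason no library could be left out, and the spread between cultures and between clones N1 and N3 limits every statement by an unknown amount.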
